A study of Arabidopsis thaliana with 24 samples.

Results

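Histones are the proteins around which nuclear DNA is wrapped, and the genes examined here were the 38 Arabidopsis thaliana loci that encode H4, H3.1, H3.3, H2A with its variants, H2B and the linker histone H1. They were taken by locus name, and every start site cluster on the strand of such a locus, with its peak between 500 bp upstream of the gene start and the gene end, was counted to it. These 38 genes stood among 22582 genes with a listed cluster, and they held 441 of 316778 clusters. Start sites had been mapped by CAGE, a method that captures the cap of RNA molecules and sequences tags from their 5′ ends, in aerial parts of wild-type seedlings at 2 weeks of age. By the labels there were 24 libraries, 3 in each of 8 groups. The 4 natural accessions Altenb-2, Vash-1, Kly-1 and Shigu-2 were each grown at 22 °C under continuous light of 40 µE (control) or moved for 24 h to 4 °C under 140 µE (the combined cold and high light treatment). The counts at hand were 4 separately numbered sets of clusters whose initials match the accessions, with no column for a library, a treatment or a replicate. Each gene therefore had 1 pooled value in each set, without a replicate spread or a test, and accession and treatment cannot be told apart in any difference between sets.

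Nucleosomes hold pairs of H2A, H2B, H3 and H4, and H1 binds the DNA between them. Most H4, H3.1, H2A and H2B proteins are made during DNA synthesis, when new chromatin has to be assembled, and H3.1 is deposited behind the replication fork. H3.3 and H2A.Z are placed on DNA at other times of the cell cycle and are typical of active and responsive genes, H2A.W of silent heterochromatin, and H2A.X is phosphorylated at DNA breaks. In plants, promoters of replication-dependent histone genes are known for a conserved octamer, CGCGGATC, and for a hexamer, ACGTCA, and both have been studied as elements of expression in dividing cells.

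The octamer was looked for in the TAIR10.1 reference, on both strands, from −250 to +50 of the main start position of each gene, which is the peak base with the highest level in any set and is counted as 0. It was found at 11 of the 38 histone genes (28.9%), against 26 of the 14774 genes with 5 CPM (defined with the levels) in at least 1 set (0.176%). The histone genes made up 42.3% of all genes with the octamer. The 13 sites are printed below 5′ to 3′ on the strand of the gene, because the octamer had the largest ratio of the share in histone genes to the share in all genes among the motifs searched. Capitals mark the octamer, written CGCGGATC on the gene strand and GATCCGCG where it lies on the opposite strand.
AT5G59690 (H4), chr5:24051392-24051421, plus strand: cactgccatcaCGCGGATCactaatatgaa
AT1G09200 (H3.1), chr1:2972406-2972435, minus strand: tcgtaccttcaCGCGGATCagtgttagaaa
AT1G09200 (H3.1), chr1:2972335-2972364, minus strand: ctgtgatttcaCGCGGATCgtgatagaaac
AT5G10400 (H3.1), chr5:3271059-3271088, minus strand: ttaacacaggaCGCGGATCgtaaagataca
AT5G65360 (H3.1), chr5:26120689-26120718, minus strand: tttagacgtgaCGCGGATCactaaaattaa
AT4G40040 (H3.3), chr4:18558944-18558973, minus strand: tttatttcagcGATCCGCGacggtttgtat
RAT5 (H2A), chr5:22196390-22196419, plus strand: taaacctcttcGATCCGCGtactctattct
HTA10 (H2A), chr1:18926726-18926755, plus strand: attcactctgaCGCGGATCctgaatctcga
HTA10 (H2A), chr1:18926790-18926819, plus strand: tgataaacagcGATCCGCGtagtttcttct
HTA13 (H2A), chr3:7229311-7229340, plus strand: gcagtaacatcGATCCGCGtgattgtttat
HTA6 (H2A.W), chr5:24116318-24116347, minus strand: atacatagtcaCGCGGATCgtgctttattt
HTB4 (H2B), chr5:24127037-24127066, plus strand: gtacagatatcGATCCGCGtcaacttaatg
AT1G06760 (H1), chr1:2077777-2077806, minus strand: aaaagagtagcGATCCGCGtagtcattgtt

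The first base of the octamer lay between −244 and −79, with a median of −123, and 7 sites were on the gene strand and 6 on the opposite one. By class, it stood at 3 of 5 H3.1 genes and 3 of 4 canonical H2A genes, but at 1 of 8 H4 genes, 1 of 7 H2B genes, 0 of 3 H2A.Z genes and 0 of 2 H2A.X genes. The site of AT4G40040 also lies in this window of a second gene, AT4G40042, which therefore counts among the 15 other genes with an octamer. A match describes letters in this window and shows neither binding nor an effect. The motifs were chosen with earlier results of these data known.

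The hexamer was found at 11 of 38 histone genes (28.9%), against 10.4% of all genes, and it was unevenly spread over the classes. All 7 H2B genes held it in this window, with at least 1 site each on the gene strand, at −73 in HTB1, −88 in HTB2 and HTB11, and −160 in HTB9. Among the other classes it stood at AT1G07820 (H4), AT3G27360 and AT5G10400 (H3.1) and AT5G10980 (H3.3). Its longer form CCACGTCA, which contains the hexamer, was at 7 of the 38 genes, against 2.43% of all genes. Octamer and hexamer occurred together at AT5G10400 and HTB4.

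A TATA motif, TATAAA or TATATA on the gene strand starting between −40 and −25, was at 25 of 38 histone genes (65.8%), against 22.4% of all genes. In a control window 100 bp further upstream it was at 2 of 38 histone genes and 3.39% of all genes. It stood at 7 of 8 H4 genes, 3 of 3 H3.3 genes and 5 of 7 H2B genes, and at 0 of 3 H2A.Z genes. The most abundant H4 gene and the most abundant H1 gene show the placement, here from −42 to −13 of the main start, with the motif in capitals. HTA9, the most abundant H2A.Z gene, is shown as a promoter without it.
AT5G59690 (H4), chr5:24051537-24051566, plus strand: tttgccTATAAAaacaatttcacatctttc
HIS1-3 (H1), chr2:7846012-7846041, plus strand: ccctgcgcTATAAAtaagctagcacgaaaa
HTA9 (H2A.Z), chr1:19645271-19645300, plus strand: tctctctatctggggaaaacgtctatcggg

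Octamer and TATA motif together are shown by the 180 bases before the annotated starts of AT5G65360, the most abundant H3.1 gene, and HTA6, the most abundant H2A.W gene, both on chromosome 5. In each, the octamer begins 123 bp before the main start, and capitals mark both motifs.
AT5G65360, chr5:26120582-26120761, minus strand: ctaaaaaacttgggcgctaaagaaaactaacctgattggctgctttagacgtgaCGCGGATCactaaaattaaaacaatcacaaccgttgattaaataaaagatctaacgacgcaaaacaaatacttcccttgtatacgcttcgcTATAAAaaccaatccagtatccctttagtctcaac
HTA6, chr5:24116221-24116400, minus strand: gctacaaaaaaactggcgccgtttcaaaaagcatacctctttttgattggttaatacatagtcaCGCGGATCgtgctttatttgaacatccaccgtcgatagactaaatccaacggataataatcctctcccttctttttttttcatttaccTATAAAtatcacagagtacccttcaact

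**Figure D1:**
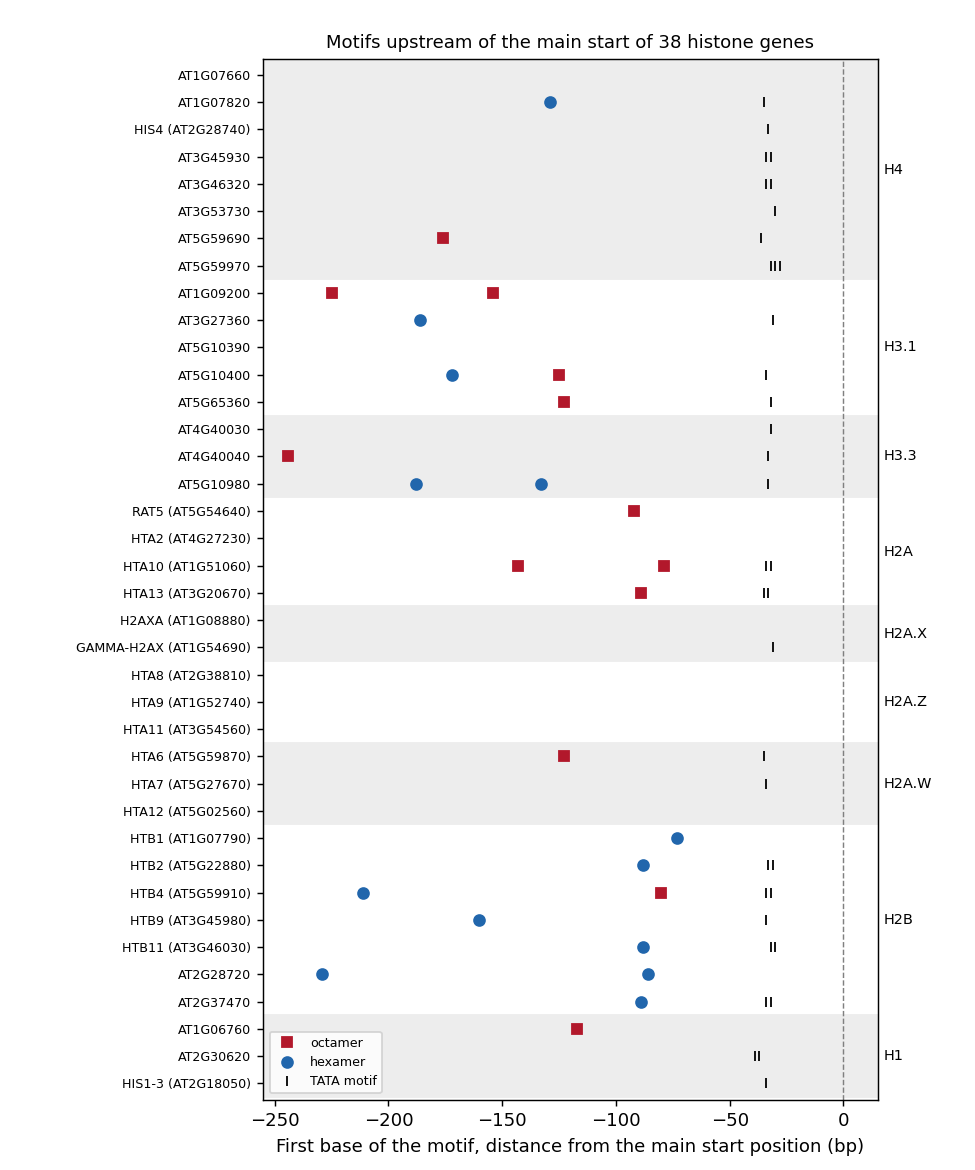
First base of each motif (x axis, bp from the main start position, dashed line at 0) for the 38 histone genes (y axis, by class). Octamers (squares) lie from −244 to −79, hexamers (circles) are present in every H2B gene, and TATA motifs (bars) line up from −39 to −28.

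Levels are given as CPM, the count of a gene per 1000000 tags of its set outside the nuclear rRNA repeats. These were 22462179 tags in Altenb-2, 24535666 in Vash-1, 29311532 in Kly-1 and 37230794 in Shigu-2. The repeats took 54.6% of all tags in Altenb-2 and 53.1% in Vash-1, against 44.3% in Kly-1 and 40.8% in Shigu-2. The smallest listed cluster has 5 tags, from 0.134 CPM in Shigu-2 to 0.223 CPM in Altenb-2. Intervals are exact 95% intervals, Poisson for levels and Clopper-Pearson for shares and ratios. They cover counting error only; no molecular identifiers are described, so tags may include PCR copies. A capped molecule gives its tag at its 5′ end whatever its length, so levels were compared between genes without a length correction. Levels listed without the names of the sets are in the order Altenb-2, Vash-1, Kly-1 and Shigu-2. In bulk tissue, fewer cells of a type and less RNA per cell cannot be told apart. Aerial tissue was checked with 5 leaf markers, which summed to 70846 CPM in Altenb-2, 69188 in Vash-1, 63537 in Kly-1 and 49168 in Shigu-2. Of 5 root markers, EXPA7 and RHD6 had no listed cluster, SHV2 reached 0.204 CPM and CASP1 2.22 CPM at most, and PYK10 had 424 to 850 CPM. All 7 markers of G2 and M phase were listed, and none reached 5 CPM.

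Every histone gene had a listed cluster in all 4 sets. Of the 22582 genes with a listed cluster, 14774 reached 5 CPM in at least 1 set and 12062 did so in every set. Of the 38 histone genes, 36 reached it in at least 1 set and 27 in every set. One exception was AT3G46320 (H4), at 0.401 CPM in Altenb-2, 0.652 in Vash-1, 0.375 in Kly-1 and 0.403 in Shigu-2. The other was HTA12 (H2A.W), at 3.96, 4.85, 3.38 and 4.65 CPM in the same order. Together the histone genes took 2137 CPM in Altenb-2 (2118 to 2156), 2073 in Vash-1 (2055 to 2091), 2714 in Kly-1 (2695 to 2733) and 2733 in Shigu-2 (2716 to 2750). Kly-1 and Shigu-2 lay above Altenb-2 and Vash-1. On the log2 scale, each summed level minus the mean of the other 3 sets was −0.22, −0.28, 0.24 and 0.25. The difference shrank to −0.08, −0.23, 0.20 and 0.10 when sets were scaled by the median of ratios over genes, which shifts Shigu-2 by −0.14 and Altenb-2 by 0.08 (log2).

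H3.3 and H2B transcripts were the most abundant. The 3 H3.3 genes summed to 829 CPM in Altenb-2, 794 in Vash-1, 998 in Kly-1 and 953 in Shigu-2, between 34.9% and 38.8% of all histone tags. The 7 H2B genes summed to 598, 632, 897 and 889 CPM, between 28.0% and 33.1%. H4, with 8 genes, stood at 168, 166, 246 and 266 CPM, and H3.1, with 5 genes, at 186, 187, 209 and 202 CPM. Each H2A kind taken alone was far lower: canonical H2A had 60.0, 62.3, 70.9 and 90.7 CPM, H2A.X 53.3, 52.9, 68.2 and 78.9 CPM, H2A.Z 55.5, 65.3, 76.2 and 77.1 CPM, and H2A.W 49.02, 42.9, 47.7 and 54.1 CPM. Together the 12 H2A genes of all kinds summed to 218, 223, 263 and 301 CPM, above H4 and above H3.1 in every set. The widest class was H1, at 138, 70.3, 99.4 and 123 CPM, a ratio of 1.97 between Altenb-2 and Vash-1. The narrowest was H3.1, with a ratio of 1.13 between Kly-1 and Altenb-2. Its sum includes AT3G27360, at 20.6, 21.7, 0.716 and 1.10 CPM, all of whose tags also lie in the window of another gene. The class ratio without AT3G27360 was not taken, so its rank as the narrowest depends on that gene being counted.

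**Figure D2:**
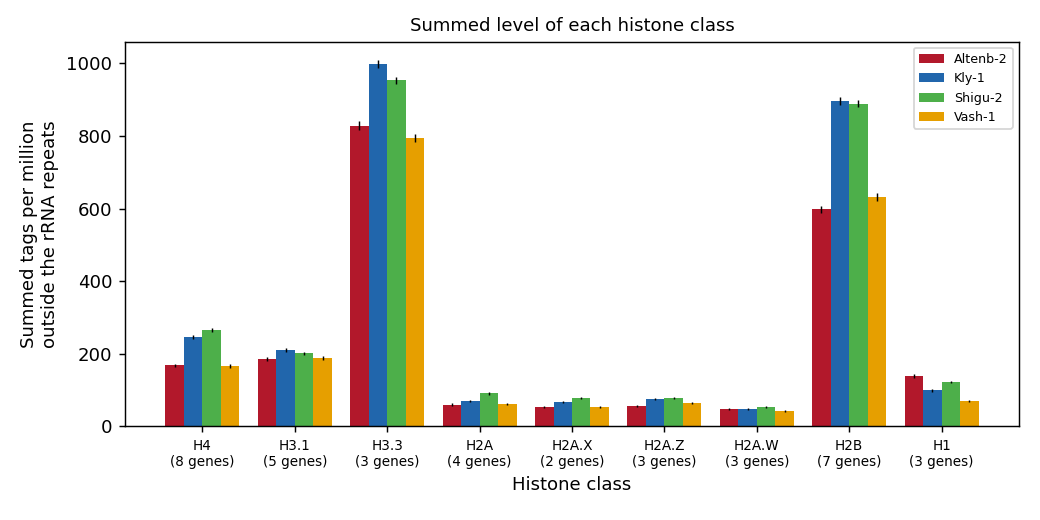
Summed level of each histone class (y axis, CPM outside the rRNA repeats) in the 4 pooled sets (bars, starting at 0). Error lines are exact 95% Poisson intervals and cover counting error only. H3.3 and H2B are far above the other classes, and H1 is the class in which Altenb-2 is highest with a wide margin over Vash-1.

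**Figure D3:**
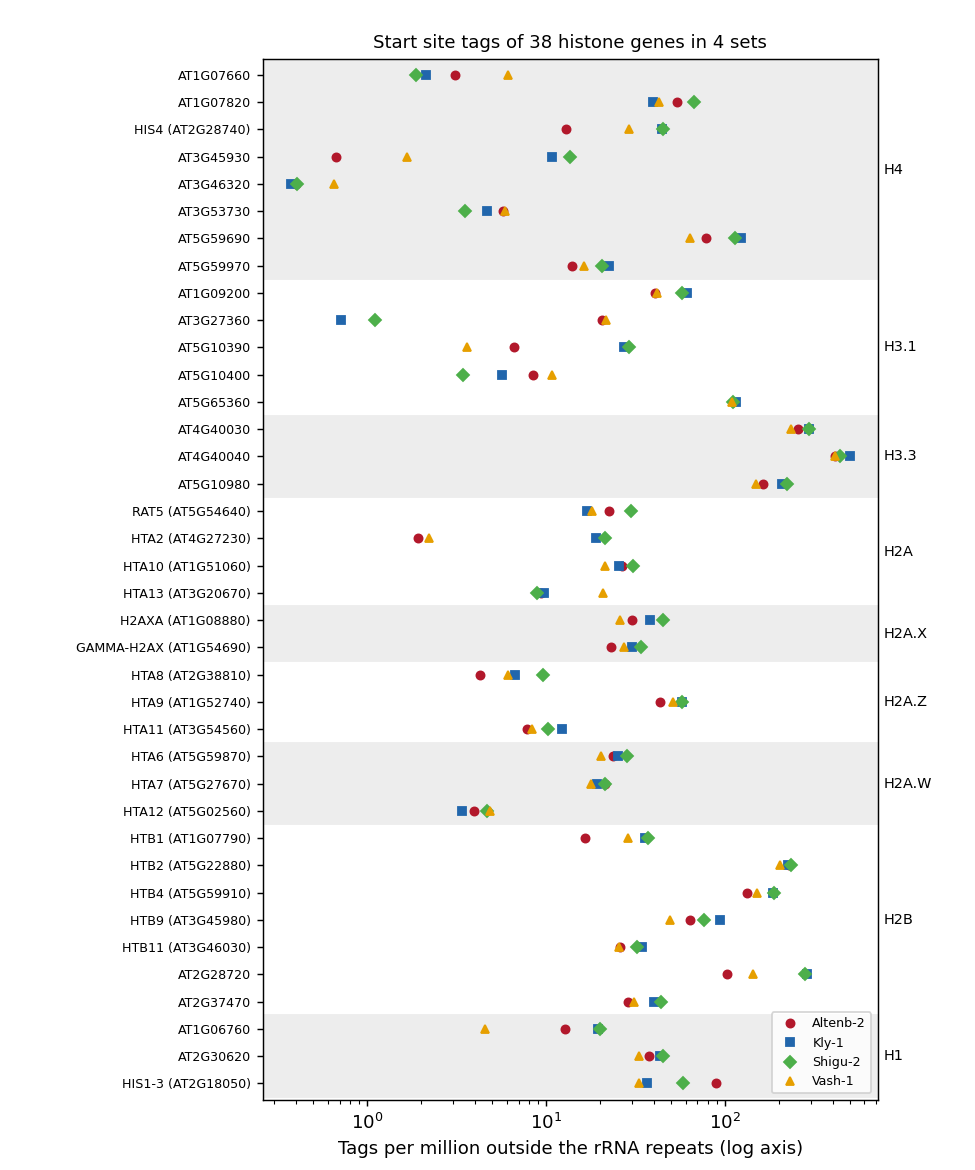
Level of each of the 38 histone genes (x axis, log scale, CPM outside the rRNA repeats) in the 4 pooled sets (symbols), ordered by class. Most genes keep their 4 symbols close together, while AT3G45930, AT3G27360, AT5G10390 and HTA2 spread widely.

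Differences between sets were taken on log2(CPM + 0.5), a scale that understates those of low genes, and described at 2-fold between the highest and the lowest set. On this measure 13 of 36 histone genes reached 2-fold, against 23.5% of 14774 genes, and 3 of 36 reached 8-fold, against 3.47%. The median span was 1.64-fold for the histone genes and 1.53-fold for all genes. Left out in turn, Altenb-2 mattered most: 8 genes spanned 2-fold without it, against 16.4% of all genes. By class, 3 of 7 H4 genes, 3 of 5 H3.1 genes, 2 of 4 canonical H2A genes, 1 of 3 H2A.Z genes, 2 of 7 H2B genes and 2 of 3 H1 genes spanned 2-fold. None of the 3 H3.3, 2 H2A.X and 2 H2A.W genes tested did.

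The sets ordered these genes in one prevailing way. In 25 of 36 histone genes both Kly-1 and Shigu-2 lay above both Altenb-2 and Vash-1, against 35.4% of all genes. This ordering was singled out after the values were seen. It held for 21 of 36 genes, against 23.7% of all genes, with median-of-ratios scaling. The reverse ordering, Altenb-2 and Vash-1 both above, was seen in 4 histone genes, AT1G07660, AT3G53730, AT3G27360 and AT5G10400, against 13.7% of all genes. Shigu-2 was the highest set for 19 of the 36 genes (41.5% of all genes), Kly-1 for 10 (21.3%), Vash-1 for 5 (19.2%) and Altenb-2 for 2 (18%). Vash-1 was the lowest set for 16 (25.9%), Altenb-2 for 13 (39.1%), Shigu-2 for 4 (16.4%) and Kly-1 for 3 (18.6%). The set that was highest most often depended on the scaling: with median-of-ratios factors it was Kly-1, for 16 genes (21.8% of all genes), before Shigu-2 for 10 (25.8%), Altenb-2 for 6 (29.6%) and Vash-1 for 4 (22.8%). The rRNA share and the summed leaf markers, given above, were higher in Altenb-2 and Vash-1. Taken singly, 1 of the 5 leaf markers had both of these sets above the other 2, and 0 had the reverse. The part of the rRNA share and the leaf markers in the ordering was not tested. Of the 7 markers of G2 and M phase, 4 had Kly-1 and Shigu-2 both above the other sets, CYCB1;1, SYP111, CDKB1;1 and CYCA1;1, and 3 had the reverse ordering, CYC1BAT, CDKB2;1 and CDKB2;2. Their sum was 9.97, 11.6, 11.5 and 12.2 CPM, and their part in the ordering was not tested.

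At 2-fold against the mean of the other 3 sets, between 1 and 5 histone genes stood out in either direction. Altenb-2 had 2 higher (2.74% of all genes) and 5 lower (4.55%), and Kly-1 had 3 higher (3.91%) and 1 lower (2.75%). Shigu-2 had 3 higher (3.76%) and 2 lower (3.67%), and Vash-1 had 3 higher (3.63%) and 4 lower (4.24%). The median difference of the 36 genes was −0.22 in Altenb-2, −0.26 in Vash-1, 0.20 in Kly-1 and 0.29 in Shigu-2 (log2), beside −0.13, −0.05, 0.04 and 0.16 for all genes. With median-of-ratios scaling Altenb-2 had 3 genes lower in place of 5, the other counts were the same, and the medians of the 36 genes were −0.08, −0.21, 0.16 and 0.13.

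**Figure D4:**
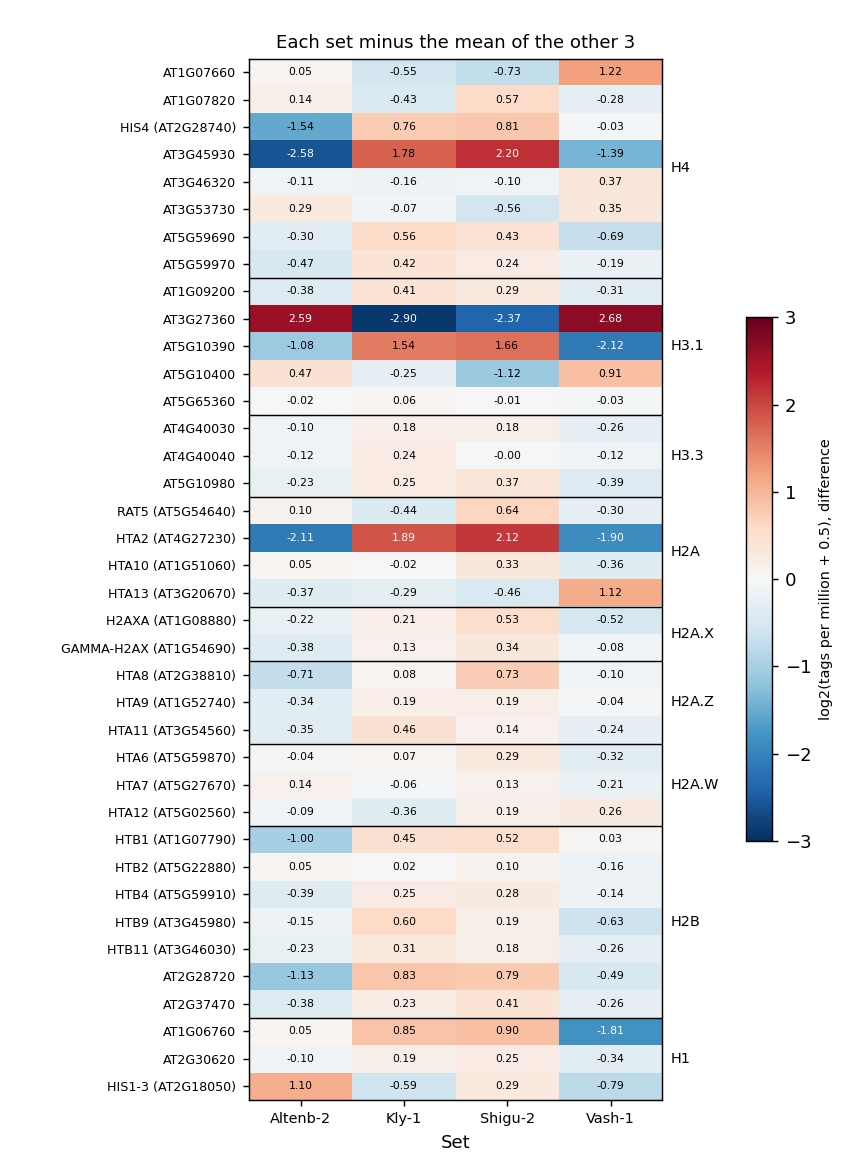
Difference of each set from the mean of the other 3 (colour and printed value, log2 of CPM + 0.5) for the 38 histone genes (rows, by class). AT3G45930, AT5G10390 and HTA2 are lower in Altenb-2 and Vash-1, AT3G27360 is the reverse, and AT5G65360 and HTB2 are nearly level.

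Among the H4 genes, AT5G59690 (chromosome 5, 24051474 to 24052218, plus strand) was the most abundant, with 77.6 CPM in Altenb-2, 63.6 in Vash-1, 122 in Kly-1 and 114 in Shigu-2. AT3G45930 (chromosome 3, 16883316 to 16884009, plus strand) had 0.668 CPM (0.374 to 1.10) in Altenb-2, 1.67 (1.20 to 2.27) in Vash-1, 10.8 (9.62 to 12.04) in Kly-1 and 13.5 (12.4 to 14.8) in Shigu-2. Its values formed a low and a high pair, and the highest was 20.3 times the lowest (12.2 to 36.5). Its first 50 transcribed bases differ from those of AT3G46320 at 1 position and the first 25 are identical, so how shared tags were assigned can enter both values. HIS4 (chromosome 2, 12329345 to 12330059, minus strand) had 13.0, 29.1, 44.1 and 45.1 CPM, 3.48 times more in Shigu-2 than in Altenb-2 (3.07 to 3.96). AT1G07660 was highest in Vash-1, with 3.07, 6.07, 2.12 and 1.88 CPM. Another 3 H4 genes spanned less than 2-fold: AT1G07820 had 53.5, 42.8, 39.7 and 66.9 CPM, AT5G59970 had 13.9, 16.2, 22.4 and 20.4 CPM, and AT3G53730 had 5.70, 5.91, 4.64 and 3.49 CPM.

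The H3.1 genes, all of which encode the same kind of replication-coupled H3, were ordered differently by the sets. AT5G65360 (chromosome 5, 26119859 to 26120581, minus strand) had 110 CPM in Altenb-2, 109 in Vash-1, 115 in Kly-1 and 111 in Shigu-2, a ratio of 1.05 (0.999 to 1.11) that is within counting error. It supplied between 54.8% and 59.1% of the H3.1 tags of a set. AT5G10390 (chromosome 5, 3268847 to 3269594, minus strand) had 6.59, 3.63, 27.3 and 29.1 CPM, 8.01 times more in Shigu-2 than in Vash-1 (6.45 to 10.1). Its neighbour AT5G10400, 577 bp away on the same strand, had 8.41, 10.7, 5.63 and 3.41 CPM, so the neighbours were ordered in opposite ways. AT1G09200, with 2 octamer sites, had 40.3, 41.8, 61.0 and 57.3 CPM.

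AT3G27360 (chromosome 3, 10129105 to 10129937, minus strand) showed the widest span of all histone genes. It had 20.6 CPM (18.8 to 22.6) in Altenb-2, 21.7 (19.9 to 23.6) in Vash-1, 0.716 (0.443 to 1.10) in Kly-1 and 1.10 (0.790 to 1.49) in Shigu-2. The highest value was 30.3 times the lowest (19.6 to 49.3), with Altenb-2 and Vash-1 high. All of its tags also lie in the window of SDH2-1, a succinate dehydrogenase subunit gene annotated over it on the same strand, although its main start sits at its own annotated start or 2 bp past it.

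H3.1 took 18.3% (17.8 to 18.8) of the H3 tags in Altenb-2, 19.1% (18.6 to 19.6) in Vash-1, 17.3% (17.0 to 17.7) in Kly-1 and 17.5% (17.1 to 17.8) in Shigu-2. Without clusters shared with another gene, which removes AT3G27360, the shares were 16.6, 17.2, 17.3 and 17.4%, and Altenb-2 and Vash-1 no longer lay above the others. The H3.3 genes, which serve chromatin outside DNA synthesis, spanned at most 1.48-fold. AT4G40040 (chromosome 4, 18557149 to 18558945, minus strand), the most abundant histone gene, had 412, 411, 495 and 438 CPM. Its neighbour AT4G40030, 42 bp further on, had 255, 234, 294 and 294 CPM, and AT5G10980 had 162, 149, 209 and 221 CPM.

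Of the canonical H2A genes, HTA10 was steady at 26.4, 21.3, 25.6 and 30.7 CPM, and RAT5, named for the resistance of its mutant to Agrobacterium transformation, had 22.3, 18.1, 16.8 and 29.8 CPM. HTA2 (chromosome 4, 13637236 to 13638449, minus strand) had 1.91 CPM (1.39 to 2.58) in Altenb-2, 2.20 (1.65 to 2.87) in Vash-1, 18.9 (17.3 to 20.5) in Kly-1 and 21.3 (19.9 to 22.9) in Shigu-2. The high and low pairs were far apart, with a ratio of 11.1 (8.19 to 15.5). HTA13 was 2.34 times higher in Vash-1 than in Shigu-2 (2.04 to 2.7), with 9.30, 20.7, 9.69 and 8.84 CPM.

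Among the H2A variants, HTA8 was the gene that spanned 2-fold. H2A.X came from H2AXA (30.2, 25.8, 37.97 and 45.0 CPM) and GAMMA-H2AX (23.1, 27.1, 30.3 and 33.9 CPM). H2A.Z, a variant known for its part in temperature responses, came mainly from HTA9, with 43.4, 50.9, 57.3 and 57.2 CPM. HTA8 spanned 2.24-fold (1.79 to 2.84), with 4.27, 6.07, 6.69 and 9.59 CPM, and HTA11 had 7.84, 8.31, 12.2 and 10.3 CPM. The H2A.Z share of all H2A tags was 25.5% (24.3 to 26.7) in Altenb-2, 29.2% (28.0 to 30.4) in Vash-1, 28.97% (27.96 to 30.0) in Kly-1 and 25.6% (24.8 to 26.4) in Shigu-2. H2A.W, the heterochromatin variant, took 22.5% (21.3 to 23.7) in Altenb-2 and 19.2%, 18.1% and 17.99% in Vash-1, Kly-1 and Shigu-2. Its genes HTA6 and HTA7 were close in level, at 23.6, 20.3, 25.1 and 28.1 CPM and at 21.4, 17.8, 19.2 and 21.4 CPM.

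Among the H2B genes, HTB2 was the steadiest, with 228, 203, 223 and 233 CPM, a ratio of 1.14 (1.11 to 1.19). AT2G28720 (chromosome 2, 12326808 to 12327808, plus strand) had 103 CPM in Altenb-2, 143 in Vash-1, 285 in Kly-1 and 280 in Shigu-2, a ratio of 2.77 (2.65 to 2.90). It supplied 17.2% of the H2B tags in Altenb-2 and 22.7% in Vash-1, but 31.7% in Kly-1 and 31.4% in Shigu-2. The next histone gene after AT2G28720 on the chromosome is HIS4, and their ends face each other 1536 bp apart. Both were lowest in Altenb-2, as were 13 of the 36 histone genes and 39.1% of all genes. HTB1 had 16.6, 28.7, 35.7 and 37.0 CPM, and HTB4 had 133, 151, 185 and 188 CPM. HTB9 was highest in Kly-1, with 63.6, 49.4, 94.0 and 75.8 CPM. HTB11 had 25.9, 25.4, 34.5 and 32.1 CPM, and AT2G37470 had 28.8, 30.7, 39.9 and 43.9 CPM.

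Among the linker histone genes, the leading gene differed between sets. HIS1-3 (chromosome 2, 7845923 to 7847031, plus strand), which encodes the short H1 variant known for induction by drought and abscisic acid, had 88.5 CPM (84.6 to 92.4) in Altenb-2, 32.9 (30.6 to 35.2) in Vash-1, 36.5 (34.3 to 38.8) in Kly-1 and 57.9 (55.5 to 60.4) in Shigu-2. Altenb-2 stood 2.69-fold above Vash-1 (2.48 to 2.93). HIS1-3 made up 63.9% (62.2 to 65.6) of H1 tags in Altenb-2, 46.7% (44.3 to 49.1) in Vash-1, 36.7% (35.0 to 38.5) in Kly-1 and 47.1% (45.7 to 48.6) in Shigu-2. Of the main linker histone genes, AT1G06760 had 12.7, 4.52, 19.5 and 20.04 CPM, 4.43 times more in Shigu-2 than in Vash-1 (3.62 to 5.46). AT2G30620 was steadier, at 37.4, 32.9, 43.4 and 44.9 CPM.

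Transcription initiation was compared by position next. In 28 of 38 histone genes the main start lay at 1 base in all 4 sets, and in 31 within 5 bp. Of the 27 genes at 5 CPM or more in every set, 22 had 1 position, against 65.1% of 12062 such genes. With 1 main start per gene, the peak base with the highest level in any set, all 38 lay upstream of the annotated start codon. Their median leader was 70.5 bp (38 in HIS4 to 482, introns included, in AT4G40040). They lay a median of 83 bp past the annotated gene start, from −3 bp in AT5G65360 to 478 bp in AT3G53730. In Altenb-2 and Vash-1 the leader of HTA2 was shorter than this range, from a main start at 116 bp to a start codon at 124 bp. A pyrimidine followed by a purine stood at the start of 33 of 38 genes (86.8%), against 89.1% of all genes. By the median, initiation was more focused than in all genes. Main clusters had a median width of 28.8 bp against 62 bp, and a median of 61.6% of tags on the peak base against 42.1%. The H3.3 genes AT4G40030, AT4G40040 and AT5G10980 were broader than that of all genes, with median widths of 147, 131.5 and 173 bp. So were AT2G28720 (118.5 bp), HTA9 (116 bp), AT5G65360 (70 bp) and HTB4 (68 bp).

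**Figure D5:**
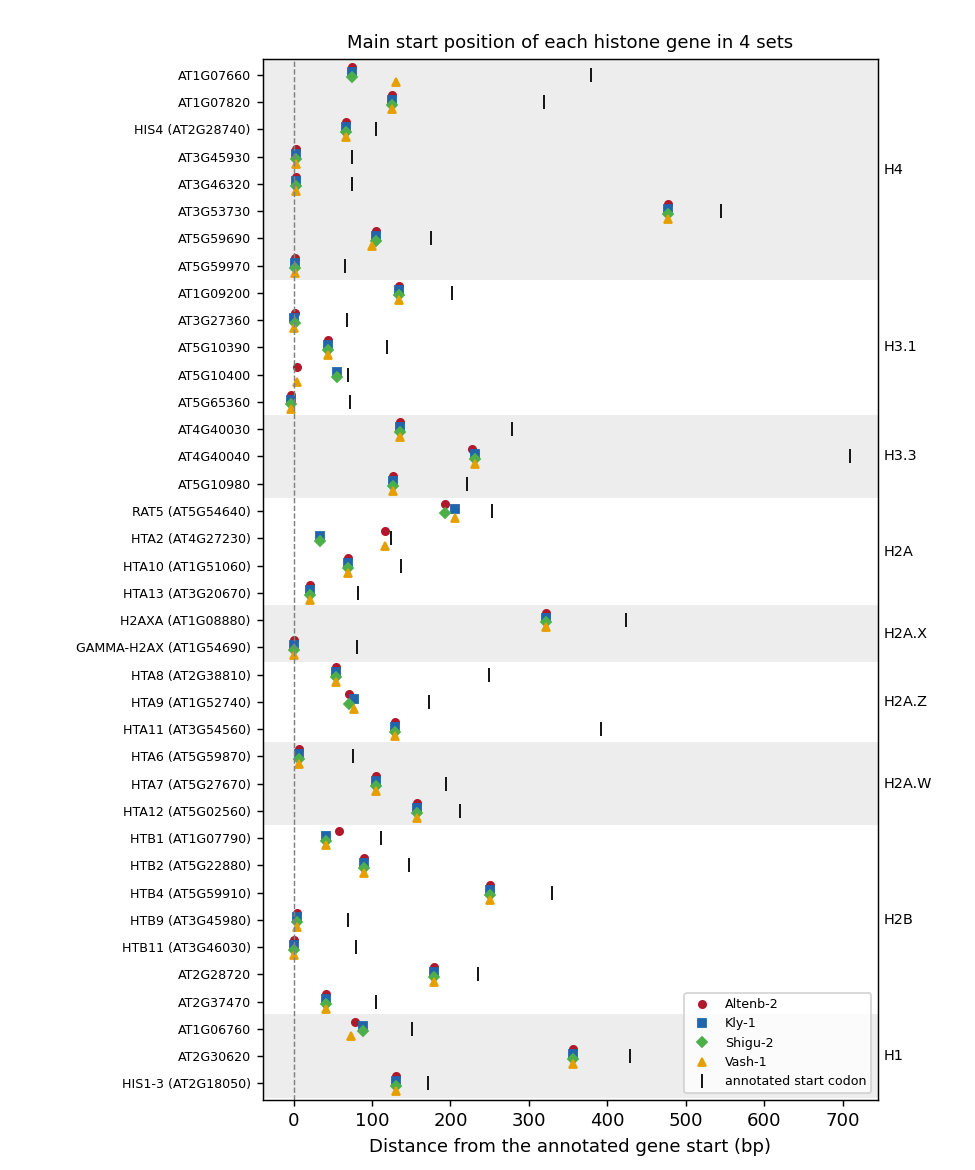
Main start position in each set (symbols; x axis, bp from the annotated gene start, dashed line at 0) for the 38 histone genes (y axis, by class), with the annotated start codon as a bar. The symbols coincide in 28 genes and part widely in AT1G07660, AT5G10400 and HTA2.

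Main starts that moved by more than 5 bp were found in 7 genes: AT1G07660, AT5G10400, RAT5, HTA2, HTA9, HTB1 and AT1G06760. AT5G10400 (chromosome 5, 3270172 to 3270957, minus strand) initiated mainly at 5 bp past its annotated start in Altenb-2 and Vash-1 and at 56 bp in Kly-1 and Shigu-2. The cluster at 5 bp held 141 tags in Altenb-2, 263 in Vash-1, 18 in Kly-1 and 13 in Shigu-2. The cluster at 56 bp held 36 in Altenb-2, 147 in Kly-1 and 94 in Shigu-2; in Vash-1 it was not listed. HTA2 initiated at 34 bp in Kly-1 and Shigu-2, where that cluster held 521 and 757 tags, against 22 in Altenb-2 (peak at 30 bp) and 17 in Vash-1. Its cluster near 116 bp held 21, 26, 21 and 17 tags, or 0.935, 1.06, 0.716 and 0.457 CPM, and its peak was the main start in Altenb-2 and Vash-1. In Altenb-2 this rests on 1 tag, since the peak at 116 bp held 12 tags and the one at 30 bp 11. The bases around these starts are shown because the same genes differ in level between the same pairs of sets. Each runs from −15 to +14 of a main start, with the first transcribed base in capitals.
AT5G10400 at 5 bp, chr5:3270938-3270967, minus strand: atcactcactttcccAtcgatcgcattctc
AT5G10400 at 56 bp, chr5:3270887-3270916, minus strand: caaatttacaatcttGcgaactcctaaaat
HTA2 at 34 bp, chr4:13638401-13638430, minus strand: gtttcgctgatactcAttattgttattttt
HTA2 at 116 bp, chr4:13638319-13638348, minus strand: tctatcttgggtagtAgagagaaatggcgg

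AT1G07660 started at 74 bp in Altenb-2, Kly-1 and Shigu-2 and at 131 bp in Vash-1, the set where it was highest. There the cluster at 131 bp held 121 of its 149 tags. RAT5 used 193 bp in Altenb-2 and Shigu-2 and 206 bp in Kly-1 and Vash-1. HTB1 used 42 bp except in Altenb-2 (58 bp), and AT1G06760 used 78, 73, 89 and 89 bp. The positions are those of the reference, and sequences of the accessions were not used here.

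Spans were also set beside the octamer. Of the 11 genes with an octamer 3 spanned 2-fold, and of the 25 tested genes without it 10 did. Their median log2 spans were 0.59 and 0.75. AT5G65360 and HTA6, whose promoters are printed above, spanned 1.05-fold and 1.39-fold, while AT5G10400 and AT1G06760, which also hold an octamer, spanned 3.14-fold and 4.43-fold.

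Genes that act with histones were read from lists that, like the members, were drawn up with earlier results known. Of 13 histone chaperone genes, 11 reached 5 CPM and 2 of these spanned 2-fold, with a median log2 span of 0.61 beside 0.62 for all genes. NRP2, a nucleosome assembly protein relative, had 8.24, 8.36, 14.98 and 18.2 CPM. The other, SGA2, an ASF1-type chaperone, had 2.32, 3.42, 3.89 and 5.13 CPM. Kly-1 or Shigu-2 was the highest set in 10 of the 11 chaperone genes, against 62.8% of all genes. The chaperone HIRA, which deposits H3.3, had 3.07, 3.87, 4.20 and 6.07 CPM. The most abundant were NAP1;1 at 125, 130, 141 and 112 CPM and NRP1 at 87.6, 97.8, 132 and 134 CPM. FAS1 and FAS2, subunits of the factor that deposits H3.1, stayed under 5 CPM in every set.

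None of 3 genes of the SWR1 complex, which exchanges H2A for H2A.Z, spanned 2-fold. ARP6 had 43.5, 39.5, 37.5 and 38.8 CPM, and PIE1, the motor subunit, had 6.23, 8.48, 8.94 and 12.2 CPM. Of 12 DNA replication genes, 11 reached 5 CPM and 4 spanned 2-fold, TSO2, MCM5, PCNA2 and RNR2A, against 23.5% of all genes. The median log2 span of the 11 was 0.98, beside 0.62 for all genes. TSO2, a ribonucleotide reductase subunit gene, had 57.6, 9.25, 39.8 and 40.2 CPM, and MCM5, of the replicative helicase, had 24.4, 6.52, 25.9 and 26.2 CPM. Both were lowest in Vash-1, as were 16 of the 36 histone genes (25.9% of all genes), AT1G06760 and AT5G10390 among them. Kly-1 and Shigu-2 both lay above the other sets in 7 of the 12 replication genes and 8 of the 13 chaperone genes. The share was 35.4% of all genes at 5 CPM, whereas the 12 and 13 genes include some under 5 CPM in every set. The reverse ordering was seen in 0 replication genes and 1 chaperone gene, FAS1, which was under 5 CPM, against 13.7% of all genes at 5 CPM. The octamer was in the promoters of 0 of the 12 replication genes and 0 of the 13 chaperone genes.

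Another 11 histone genes that are not among the 38 were low or not listed. A cluster was listed for 6 of them, and AT3G53650, an H2B gene with 5.12, 0.937, 2.93 and 3.63 CPM, was the one that reached 5 CPM. Pollen-type MGH3 had no listed cluster in any set.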

How the data were processed

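CAGE libraries of 4 accessions were deposited as one table of start site clusters. Its cluster and peak values are whole-number tag counts that the authors deposited without normalization, its peak ratio is a fraction (peak count over cluster count) per the file headers, and its positions and widths are in bp, other columns being identifiers. The submitters' processing notes name the aligner STAR 2.7.9a. Sources used here state neither genome build nor filters nor how tags were clustered. The 4 identifier series were named by accession from their initials alone, and 0 columns belong to other samples. All cluster ends lay within the 5 chromosomes of TAIR10.1, and a purine preceded by a pyrimidine stood at 62.7% of peaks, and at 20.7% of the bases 50 bp upstream of them, so names, motifs and sequences were taken from that reference and its RefSeq annotation.

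From the counts were computed CPM outside the nuclear rRNA repeats (5000 bp around rRNA genes), log2(CPM + 0.5) for genes of 5 CPM in any set, spans called at 2-fold, exact 95% intervals, main start positions and motif matches, with Python 3.11.15, pandas 2.3.3, numpy 2.4.6 and scipy 1.17.1. Counts were summed per gene, and a cluster in the windows of several genes counted for each. The calls were tested on simulated data. No model could be fitted and no p-value exists, because each set is 1 pooled value. All 38 members could be named, and of other lists up to 3 genes by level and up to 3 by span; FAS1, FAS2, RNR2A, MGH3, ARP6, PIE1 and the tissue and cell division markers were named after their values were seen. Members and lists were chosen with earlier results of these data known. Alternatives changed the scaling, the window, the smallest cluster, the pseudocount and the minimum level. They also changed shared clusters, genes whose first bases occur elsewhere, the depth and the tolerance on positions. Sets were also left out in turn.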

Additional observations from a re-analysis of the deposited data

How the results depend on the processing

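Each set is 1 pooled value, so no replicate could be left out and every interval covers counting error only. No paired analysis was possible because the columns carry no replicate number. Over 16 alternatives the number of histone genes spanning 2-fold ranged from 8 to 16, around 13, and 15 of them stayed within 1.5 times; the value of 8 came without the Altenb-2 set, an alternative chosen after seeing the data. The summed level against the mean of the other 3 sets depended on scaling. With the rRNA repeats kept it was −0.46 in Altenb-2, −0.46 in Vash-1, 0.39 in Kly-1 and 0.52 in Shigu-2 (log2). With median-of-ratios factors it was −0.076, −0.23, 0.20 and 0.10. The other 24 of 32 values stayed within counting error, and none turned in sign. These 24 include the values without genes whose first 50 bases occur elsewhere. There were 0 such genes, so that alternative could only repeat the main values. The H3.1 share without clusters shared between genes was 16.6% in Altenb-2 and 17.2% in Vash-1, which follows from the loss of AT3G27360; the other 18 of 20 values stayed within counting error. Genes listed in all sets numbered 36 to 38, and those with 1 main position 28 to 31. The ordering with Kly-1 and Shigu-2 above held for 28 of 34 genes with the rRNA repeats kept, against 65.2% of all genes. With a window of 500 bp upstream, added after seeing the data, the octamer was at 12 histone genes and 0.311% of all genes. Below 5 tags a start site is not listed, which limits the low genes.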

Other observations

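The base next to the octamer was counted after the sequences were seen. Read in its own orientation, the octamer had an A before it at 12 of 13 sites of histone genes, AT4G40040 being the exception. It had an A at 6 of 15 sites of the 15 other genes, of which 1 is the AT4G40040 site, counted again for AT4G40042. Those other genes include UPF3, LINC1, CAM2, BIO1 and IPT3, with mean levels of 54.7, 46.5, 66.7, 9.49 and 3.70 CPM.

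Further motifs were less frequent. AAACCCTA, a repeat known from telomeres and from promoters of growth genes, was at 3 of 38 histone genes, against 10.3% of all genes, and lay within 17 bp of the main start in each: H2AXA, GAMMA-H2AX and HTA8. The E2F-type words TTTCCCGC or TTTGGCGC were at 2 histone genes, the near-identical H4 copies AT3G45930 and AT3G46320, against 1.37% of all genes.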
